A study of Mus musculus with 4 samples.

Results

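Fecal bacteria of mice given a mix of 4 antibiotics by mouth were compared at day 4 with those of mice given phosphate-buffered saline (PBS) by the same route. The fecal libraries were chosen from the authors' sample sheets by day 4, the oral route and the mix or PBS, which gives 4 mix libraries and 5 PBS libraries of 198 fecal libraries in all. The animals were wild-type C57BL6/J mice aged 8 to 12 weeks, kept free of specific pathogens on standard chow. Mix mice received ampicillin, metronidazole, neomycin and vancomycin together, and each dose of antibiotic was 2.5 mg in 100 µl of PBS. The labels do not say whether that mass applies to each drug of the mix or to their sum. PBS mice received 100 µl of PBS alone. All were dosed 2 times a day for 3 days and 1 more time on day 4, and were euthanised 4 hours after the last dose. The mix mice are called X1, X4, X5 and X6 and the PBS mice C2, C3, C4, C5 and C6, as the authors' sample names begin. Oral vancomycin (6 mice) and oral ampicillin (5 mice), 2 drugs of the mix given alone, were used for a further comparison.

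Ampicillin is a beta-lactam that blocks the enzymes that cross-link the bacterial cell wall. Vancomycin binds the precursors of that wall, is active mainly against Gram-positive bacteria and stays largely in the gut when swallowed. Neomycin, an aminoglycoside, acts on the ribosome, mainly of aerobic Gram-negative bacteria, and is also little absorbed. Metronidazole is activated inside anaerobes and damages their DNA. The gut of an untreated mouse is dominated by anaerobes: Muribaculaceae and Bacteroidaceae, which are Gram-negative fibre degraders of the phylum Bacteroidota, and Clostridia, Gram-positive fermenters that include butyrate producers.

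The measure is the share of a library's 16S rRNA gene reads that fell to a taxon, printed here as percent of reads. It is a share and not an amount: fewer cells of a taxon and more cells of the others cannot be told apart. The 4 mix libraries held 11999 reads (X1), 57476 reads (X4), 76424 reads (X5) and 556 reads (X6), against 18152 to 64482 reads in the PBS libraries. A taxon with no read can lie below a limit of 3 reads of the library, which is 0.025% in X1, 0.00522% in X4, 0.00393% in X5 and 0.54% in X6, against 0.00465% to 0.0165% in PBS libraries; these limits cover counting error only. X1 and X6 were sequenced in the run named ok122, as were all PBS libraries, and X4 and X5 in the run named SB1. X4 and X6 carry the same replicate number in the sample sheets and were kept as separate mice by their names.

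The 4 mix mice did not share a community, and 3 of them were dominated by bacteria that PBS mice hardly held. Burkholderia, a genus of aerobic Gram-negative rods known from soil and water, was 91.9% of reads in X1, 96.0% in X4, 0.0903% in X5 and 37.8% in X6. In PBS mice it was 0 in 4 libraries and 0.00775% (5 reads) in C5. The 95% Wilson intervals of the mix libraries ran from 91.4% to 92.3% in X1, from 95.8% to 96.1% in X4, from 0.0714% to 0.114% in X5 and from 33.8% to 41.9% in X6, so the mice differed far beyond counting error. All 4 mix libraries were above all 5 PBS libraries, with a log2 difference of 10.24 (SE 1.36) on the scale log2(percent + 0.01) and a limma adjusted p of 4.2e-09 over 95 genera. X1 and X4, both above 90%, came from different runs. Within ok122, with 2 mix mice (X1 and X6), the log2 difference was 12.36 (limma adjusted p = 1.59e-11). That p rests on a spread shared by all day 4 groups of the run. No oral PBS library was in SB1, so the groups could not be compared there.

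Because 1 genus took up most reads of X1 and X4, the other taxa rest on few reads there: 977 reads in X1, 2315 in X4 and 346 in X6, against 76355 in X5. The main results are therefore given both over all reads and with Burkholderia taken out and the rest rescaled to 100%. Without Burkholderia the limit of a taxon with no read became 0.307% in X1, 0.13% in X4 and 0.867% in X6.

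Beneath Burkholderia each mix mouse had its own leading bacteria. In X1 Phocaeicola vulgatus, a polysaccharide-degrading member of Bacteroidaceae, held 2.90% of all reads and 35.6% without Burkholderia. Its genus, Phocaeicola_A_858004, had at most 0.0448% in PBS mice. Staphylococcus held 1.55% of all reads of X1 and 19.0% without Burkholderia, and Parabacteroides_B_862066 held 0.85% and 10.4%. In X4 the leading groups without Burkholderia were unclassified Lachnospiraceae (15.3%), Prevotella (14.3%), COE1 (5.57%) and Odoribacter_865974 (5.23%), all of them also found in PBS mice. Bifidobacterium adolescentis, a saccharolytic actinomycete, held 59 reads of X4 and was listed at 0 in all PBS libraries.

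X5, the mix mouse with almost no Burkholderia, was led by Bacteroidota, among them genera that were rare in PBS mice. Bacteroides_H, a genus of versatile polysaccharide degraders, was 32.9% of its reads, against 0.336% to 0.844% in PBS mice. Bacteroides_H intestinalis alone made 10.5% there and was listed at 0 in every PBS library. Parabacteroides_B_862066 was 21.0% of X5, made of P. goldsteinii (13.2%) and P. distasonis (7.79%), against at most 0.0761% in PBS mice. Escherichia_710834, a facultative anaerobe that often expands after antibiotics, was 7.92% of X5, against 0 in 3 PBS libraries and 0.333% at most. X5 had no day 0 library, so whether these were there at the start is not analysed here.

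X6, with 556 reads, was led after Burkholderia by Gram-positive cocci. Staphylococcus, a salt-tolerant genus of skin, held 29.9% of X6, Mammaliicoccus lentus, a close relative of the staphylococci, 14.7%, and Streptococcus 4.86%. Without Burkholderia these came to 48.0%, 23.7% and 7.80%. Staphylococcus was present in all 4 mix libraries (1.55% in X1, 0.0244% in X4, 0.0707% in X5 and 29.9% in X6) and listed at 0 in all 5 PBS libraries. Set against the mean limit of 0 in PBS libraries (0.00847%), its mix mean was at least 930-fold higher, and at least 1999-fold higher without Burkholderia. These bounds rest largely on X6, and without that library they were at least 64.8-fold and at least 776-fold. The genus was in too few libraries of the series to enter the genus test, since it was listed at 0 in all 107 day 0 libraries and above 0 in 12 of the 87 other day 4 libraries, where its highest share was 0.202%.

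**Figure D1:**
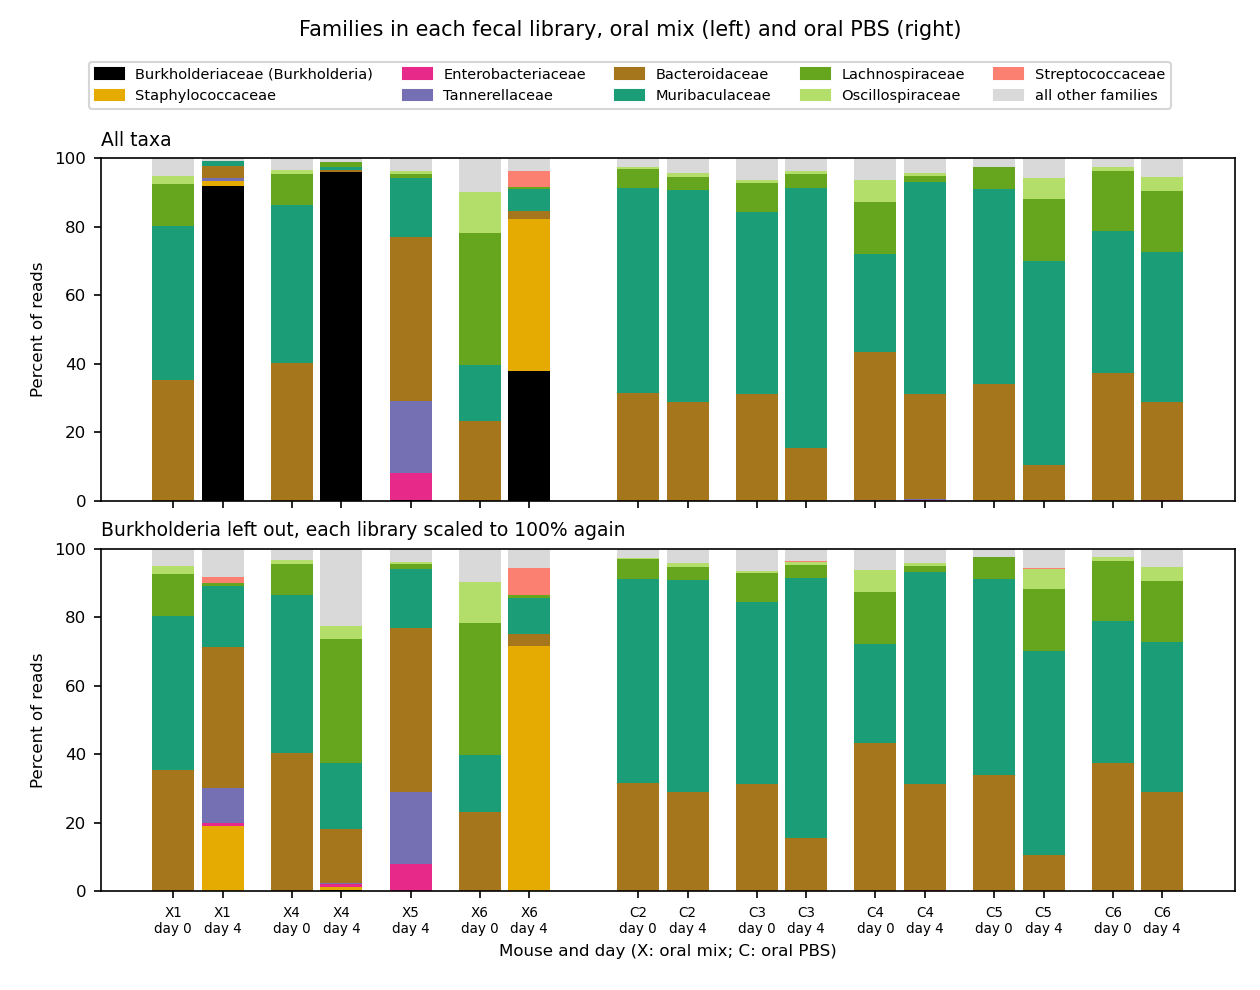
Percent of reads (y axis, 0 to 100) by family, the 4 oral mix mice left of the 5 oral PBS mice, over all taxa and with Burkholderia taken out. Each mouse has a day 0 bar and a day 4 bar, except X5, which has day 4 alone. At day 4 Burkholderia fills over 90% of X1 and X4, and X5 is mostly Bacteroidota. Without Burkholderia the 4 mix bars of day 4 still differ from each other, while the 5 PBS bars of day 4 are each led by Muribaculaceae.

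The Burkholderia in mix mice was set beside the rest of the series. At day 0 it was above 0 in 8 of 107 libraries, with 0.730% at most. The day 0 libraries of X1, X4 and X6 had no read of it, which allows at most 0.00876%, 0.0176% and 0.0140%. Of all 5 day 0 libraries of the oral mix group, 1 held it, at 0.145%. At day 4 it was above 0 in 35 of 91 libraries and above 1% in 7. These were 3 of the 4 oral mix mice, 2 of the 5 oral ampicillin mice (96.6% and 89.0%), 1 mouse given ampicillin into the peritoneum (8.49%) and 1 given the mix into a vein (3.59%). Among the 6 oral vancomycin libraries 4 held it, at 0.0933% at most, and 1 of 4 oral neomycin and 1 of 6 oral metronidazole libraries did. All 7 libraries above 1% came from mice given ampicillin alone or in the mix, in both runs. The source of these reads was not tested.

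Within-library diversity was lower in the mix mice, and that difference did not pass the test once Burkholderia was taken out. The Shannon index, which grows with the number of taxa and the evenness of their shares, was 0.478 in X1, 0.315 in X4, 2.62 in X5 and 1.75 in X6. In PBS mice it was 2.86 in C2, 2.97 in C3, 2.73 in C4, 3.46 in C5 and 2.96 in C6. The groups did not overlap, with means of 1.29 ± 1.09 in mix mice and 3.00 ± 0.276 in PBS mice (SD, n = 4 and 5) and a difference of -1.71. The two-sided exact permutation test gave p = 0.00794, the smallest that 126 relabellings allow, and an adjusted p of 0.0238 over 15 comparisons of a drug and route with PBS. Leaving out any 1 PBS library raised the adjusted p of the exact test to 0.0612, where the exact p was 0.0286, the smallest that 4 against 4 allows. Within run ok122, with 2 mix mice, the difference was -1.88 (exact p = 0.0476, adjusted p = 0.119).

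Without Burkholderia the index of X4 was 3.63, above every PBS library, and that of X1 was 2.40, X5 2.62 and X6 1.74. The means were 2.60 ± 0.783 in mix mice and 3.00 ± 0.275 in PBS mice (SD, n = 4 and 5). The difference of -0.399 did not pass the exact permutation test (p = 0.325, adjusted p = 0.455). In a draw of 500 reads from each library, which sets the depths equal, 15 taxa were found in X1, 16 in X4, 38 in X5 and 19 in X6, against 40 to 69 in PBS mice. In 500 reads other than Burkholderia, X1 had 38 taxa, X4 had 60 and X5 had 39, against 41 to 65 in PBS mice, and X6 was too shallow to be drawn. X1 and X5 had fewer taxa than any PBS mouse in both draws, and X4 did so in the draw with Burkholderia alone.

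The community as a whole differed between the groups in both ways of counting. The Bray-Curtis distance, which is 0 for equal shares and 1 for no shared reads, split by group with R2 = 0.537 over all taxa and R2 = 0.338 without Burkholderia. Both gave p = 0.00794 in the exact permutation test of the distances, adjusted p = 0.0149 over 15 comparisons. Mix mice were also farther from each other than PBS mice were, and this test responds to unequal spread too. Pairs of mix libraries lay 0.691 apart on average (0.0723 to 0.976), against 0.284 (0.135 to 0.440) for pairs of PBS libraries. The low end was X1 with X4, the pair led by Burkholderia. Without Burkholderia no mix pair was closer than 0.726 and the mean was 0.825, against 0.284 in PBS mice. Within run ok122 R2 was 0.761 over all taxa and 0.642 without Burkholderia (exact p = 0.0476 and adjusted p = 0.102 in both).

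**Figure D2:**
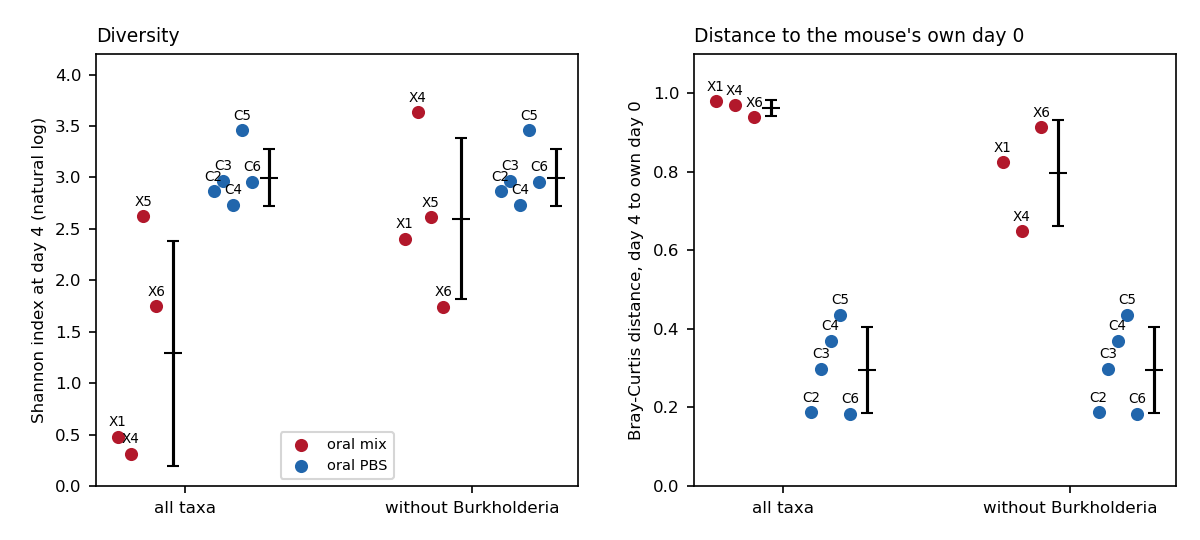
Shannon index at day 4 and Bray-Curtis distance of each mouse to its own day 0 library, with mix mice left of PBS mice, over all taxa and without Burkholderia; points are mice, and lines with bars are the mean and SD. The mix mice lie at 0.315 to 2.62 on the Shannon index over all taxa and overlap the PBS mice once Burkholderia is taken out, while their distances to day 0 stay above all PBS distances both ways.

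Mice with libraries of both days could be set against themselves, which left 3 mix mice and 5 PBS mice. The distance between day 4 and day 0 was 0.98 in X1, 0.969 in X4 and 0.939 in X6, against 0.188, 0.298, 0.370, 0.436 and 0.185 in C2 to C6. Without Burkholderia it was 0.825, 0.649 and 0.914 in the mix mice. Every mix mouse had moved farther than every PBS mouse in both ways of counting, with a mean difference of 0.667 over all taxa and 0.501 without Burkholderia. The exact permutation test gave p = 0.0179 in both, the smallest that 56 relabellings allow, with adjusted p = 0.0298. The day 0 libraries of 3 PBS mice held 318 to 1077 reads, and with mice of at least 500 reads on both days the groups were 3 against 3, where the smallest p is 0.10.

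The genera that had filled the mix mice at day 0 were followed to day 4. Genera of at least 1% at day 0 summed to 1.74% at day 4, against 89.8% at day 0, in X1, where 9 of 12 were still detected. In X4 they summed to 2.19% at day 4, against 92.4% at day 0, and all 11 were still detected. In X6 they summed to 6.12% at day 4, against 84.9% at day 0, with 5 of 15 detected in 556 reads. Without Burkholderia the day 4 sums were 21.4% in X1, 54.4% in X4 and 9.83% in X6. In PBS mice all such genera were detected again in each of the 5 mice, and their day 4 sums were 80.1% to 92.8%. X4 thus kept every major genus of its own day 0 at low share, which was not so in X1 and X6, where depth differed as well.

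At the level of families, Muribaculaceae, the leading family of PBS mice, fell over all taxa. Its summed share was 1.44% in X1, 0.778% in X4, 17.2% in X5 and 6.48% in X6, against 61.8%, 76.0%, 61.9%, 59.6% and 43.8% in C2 to C6. The log2 difference was -4.15 (limma adjusted p = 0.0122 over 39 families). Without Burkholderia the sums were 17.7%, 19.3%, 17.3% and 10.4% in the mix mice, still all below the lowest PBS mouse, and the log2 difference of -1.92 did not pass the test (limma adjusted p = 0.285). Staphylococcaceae was present in every mix mouse (1.55%, 0.0244%, 0.0995% and 44.6%) and listed at 0 in every PBS mouse, with limma adjusted p = 2.79e-09. Its mix mean was at least 1366-fold above the PBS limit, and at least 2699-fold without Burkholderia (limma adjusted p = 1.32e-14). Without X6 the bounds were at least 65.9-fold and at least 777-fold.

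Over all families 13 of 39 (33.3%) passed the threshold of adjusted p 0.05 over all taxa, of which 2 were higher (5.13%) and 11 lower (28.2%) in mix mice. The 11 that fell were Muribaculaceae, Rikenellaceae, Marinifilaceae and UBA932 among Bacteroidota, and CAG-508, Oscillospiraceae_88309, Ruminococcaceae, Acutalibacteraceae, Dehalobacteriaceae, UBA660 and Eggerthellaceae among the others. CAG-508 was 0.277% of X5 and at 0 in the other mix mice, against 0.364% to 1.49% in PBS mice (log2 difference -4.79, limma adjusted p = 0.000397). Without Burkholderia 7 of 38 passed (18.4%), with 2 higher (5.26%) and 5 lower (13.2%). The 5 were CAG-508, Ruminococcaceae, Acutalibacteraceae, UBA660 and Eggerthellaceae, and the higher ones Staphylococcaceae and Tannerellaceae. Eggerthellaceae and UBA660 were at 0 in all 4 mix mice with PBS means under the mean mix limit of 0.143%, so no fold is given for the group. That mean limit rests largely on X6 (0.54%). The PBS means (0.0378% and 0.0823%) were above the limits of X1 (0.025%), X4 (0.00522%) and X5 (0.00393%) over all taxa.

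Among genera 35 of 95 (36.8%) passed the threshold over all taxa, 1 higher (1.05%) and 34 lower (35.8%) in mix mice. Burkholderia was the 1 higher. With Burkholderia taken out 16 of 94 passed (17%), 1 higher (1.06%) and 15 lower (16%). The 15 lower genera were lower both ways, 19 others passed only with Burkholderia in the total, and 59 passed neither way. Of the 15, 9 were above 0 in X5 alone among the mix mice, and 2 were at 0 in all 4. Rescaling leaves a 0 at 0 and hardly moves X5, which held 0.0903% Burkholderia. For those genera a call both ways is therefore not a second line of support. The median log2 difference of all tested genera was -1.45 over all taxa and -1.08 without Burkholderia, and most differences were negative (81 of 95 and 73 of 94). Part of this comes from zeros in shallow libraries. In each set 18 genera were at 0 in a whole group. With these set to the bound that the read limits allow, the medians were -1.24 and -0.647. Zeros of single libraries were left as they were. When each library was instead centred on the mean log of its genera (centred log ratio), 5 genera passed over all taxa, 2 higher and 3 lower, and 5 without Burkholderia, again 2 higher and 3 lower. Centring sets the mean difference of the genera to 0, so that split does not bear on how many genera fell. In 28 of 95 genera (29.5%) all 4 mix libraries lay below all 5 PBS libraries, and without Burkholderia in 15 of 94 (16%); above all PBS libraries were 1 of 95 (1.05%) and 1 of 94 (1.06%), namely Burkholderia and, without it, Bacteroides_H.

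**Figure D3:**
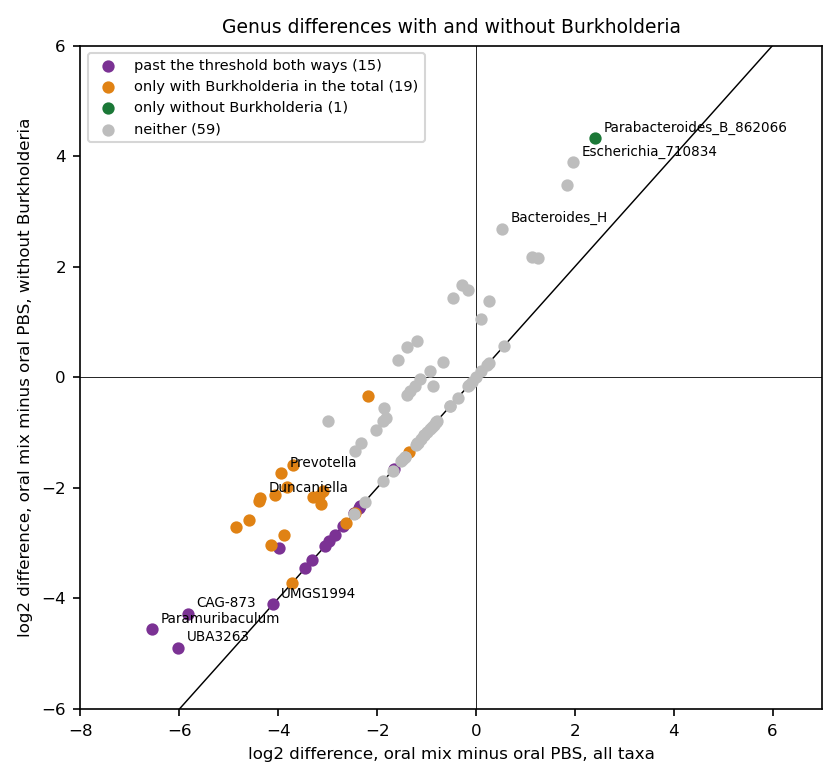
Log2 difference in percent of reads (oral mix minus oral PBS, on the scale log2(percent + 0.01)) of each of 94 genera over all taxa (x axis) and without Burkholderia (y axis); the diagonal marks equal values and colours mark which way a genus passed adjusted p 0.05. Points of 19 genera that passed only with Burkholderia in the total lie above the diagonal or close to it, and 15 passed both ways.

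The largest falls were in 3 genera of Muribaculaceae. Paramuribaculum was 0.0833% in X1, 0.167% in X4, 0.347% in X5 and 0 in X6, against 8.97%, 8.22%, 6.36%, 7.03% and 11.5% in C2 to C6. The log2 difference was -6.56 (SE 1.28, limma adjusted p = 6.35e-05), which is -5.11 relative to the median of all tested genera. Without Burkholderia it was 1.02%, 4.15%, 0.347% and 0 in the mix mice, all below the PBS mice (log2 difference -4.55, limma adjusted p = 0.0191). The call was lost without X6 (log2 difference -2.84, limma adjusted p = 0.181).

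UBA3263 was 0 in X1, 0.106% in X4, 0.637% in X5 and 0 in X6, against 1.94% to 4.81% in PBS mice, with a log2 difference of -6.02 (limma adjusted p = 0.000681). Without Burkholderia X4 had 2.63%, inside the PBS range, and the log2 difference was -4.89 (limma adjusted p = 0.0183). That call was lost without X1 or X6 (log2 difference -3.72, limma adjusted p = 0.133 and 0.123). CAG-873 was 0.0167%, 0.00522%, 0.199% and 0 in the mix mice, against 1.03% to 2.53% in PBS mice, a log2 difference of -5.83 (limma adjusted p = 0.00112) and of -4.27 without Burkholderia (limma adjusted p = 0.0347). The call without Burkholderia was lost without X6 (-3.22), C2 (-4.14) or C5 (-4.18), with limma adjusted p of 0.17, 0.0568 and 0.0714. Centred on the mean log of the library, these 3 genera were lower over all taxa, and UBA3263 was the one of them still lower without Burkholderia.

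The other abundant Muribaculaceae were lower over all taxa and not called without Burkholderia. Duncaniella was 0.15%, 0.125%, 3.51% and 1.62% in the mix mice, against 9.88% to 17.4% in PBS mice (log2 difference -4.37, limma adjusted p = 0.0267). Without Burkholderia it was 1.84% to 3.51% in mix mice, still below every PBS mouse, with a log2 difference of -2.18 (limma adjusted p = 0.296). CAG-485, unclassified Muribaculaceae and Muribaculum were lower as well, with log2 differences of -4.38, -4.85 and -3.71 over all taxa (limma adjusted p = 0.0267, 0.007 and 0.0367). The calls of Duncaniella, CAG-485 and Muribaculum were lost without X1 (log2 differences -3.74, -3.26 and -3.57) or X4 (-3.66, -3.80 and -2.54). That of unclassified Muribaculaceae was lost without X4 (-3.88), and that of Muribaculum also without C2, C3 or C5 (-3.57 to -3.70). Of the 8 Muribaculaceae genera tested, 7 were lower over all taxa (87.5%, beside 35.8% of all tested genera). Without Burkholderia 3 were lower (37.5%, beside 16%). The eighth, UBA7173, had a log2 difference of -2.99 over all taxa (limma adjusted p = 0.106). The list's median was -4.62 over all taxa and -2.47 without Burkholderia, beside -1.45 and -1.08 for all tested genera.

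In Bacteroidaceae the genera differed from each other. Prevotella, a fibre degrader with the highest mean share of the named genera in PBS mice, was 0.233%, 0.574%, 14.8% and 1.44% in the mix mice, against 28.2%, 15%, 30.3%, 9.54% and 28.3% in C2 to C6. It fell over all taxa (log2 difference -3.94, limma adjusted p = 0.024) and did not pass without Burkholderia (-1.73, limma adjusted p = 0.367), where X4 had 14.3% and X5 14.8%. The call over all taxa was lost without X1 (log2 difference -3.13) or X4 (-3.55). The Prevotella of X4 included Prevotella sp004792655, with 132 reads, which was listed at 0 in all PBS libraries. Bacteroides_H was 0.217%, 0.0557%, 32.9% and 0.719% over all taxa, on both sides of the PBS range. Without Burkholderia it was 2.66%, 1.38%, 32.9% and 1.16%, all above the PBS maximum of 0.844%, but the limma test did not call it (log2 difference 2.69, SE 1.5, adjusted p = 0.182). Of the 3 Bacteroidaceae tested, 1 was lower over all taxa (33.3%, beside 35.8% of all tested genera). Without Burkholderia 0 were lower (0%, beside 16%).

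The genus that passed as higher only without Burkholderia was Parabacteroides_B_862066, a bile-tolerant member of Tannerellaceae. It was 10.4% in X1, 0.518% in X4, 21.0% in X5 and 0 in X6, against 0.0165% to 0.0761% in PBS mice. The log2 difference was 4.33 (SE 1.60, limma adjusted p = 0.0499), and the call held in 3 of the 9 fits that left out 1 library. It was lost without X1 (3.22), X5 (2.89), C2 (4.38), C3 (4.09), C5 (4.29) or C6 (4.38). Rikenellaceae and Marinifilaceae, of the same order, went the other way over all taxa: Alistipes_A_871400 was 0.0333%, 0.0974%, 0.245% and 0 in mix mice, against 0.6% to 1.44% in PBS mice (log2 difference -4.07, limma adjusted p = 0.00956). Odoribacter_865974 was 0, 0.211%, 0.182% and 0, against 0.32% to 0.59% (log2 difference -3.30, limma adjusted p = 0.024). The call of Alistipes_A_871400 was lost without X6 (-3.22) and that of Odoribacter_865974 without X1 or X6 (-2.58). Without Burkholderia X4 had 2.42% Alistipes_A_871400 and 5.23% Odoribacter_865974, above every PBS mouse, and neither genus passed.

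Clostridia, the fermenters of the list of 10 families, had 17 of 42 tested genera lower over all taxa (40.5%, beside 35.8% of all tested genera) and 9 of 42 without Burkholderia (21.4%, beside 16%), with 0 higher both ways. Their summed share was 0.0833% in X1, 1.61% in X4, 2.28% in X5 and 0.54% in X6, against 3.45% to 25.0% in PBS mice. Without Burkholderia it was 1.02%, 40.0%, 2.29% and 0.867% in the mix mice, so X4 was above every PBS mouse and the other 3 below every one. The means without Burkholderia were 11.0% ± 19.3 in mix mice and 12.5% ± 10.4 in PBS mice (SD, n = 4 and 5). The list's median log2 difference was -1.87 (-1.28 without Burkholderia), beside -1.45 (-1.08) for all tested genera, so the list lay little below the rest. Several were seen in X5 alone among the mix mice, so taking out Burkholderia could hardly change their values. Eubacterium_F was 0.0105% in X5 and 0 in the others, against 0.0354% to 0.292% in PBS mice (log2 difference -2.85 both ways, limma adjusted p = 0.00184 over all taxa and 0.00466 without Burkholderia). CAG-56 was 0.0131% in X5 and 0 in the others, against 0.0546% to 0.132% (log2 difference -2.97 both ways). Eubacterium_R was 0.0864% in X5 and 0 in the others, against 0.0988% to 0.38% (log2 difference -3.31 both ways); without Burkholderia its call was lost without X1 or X6 (-3.04).

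The rare genera were read mainly in the deepest mix library. Of the 15 genera lower both ways, 13 were above 0 in X5, 4 in X4, 2 in X1 and 0 in X6, and 9 were above 0 in X5 alone. Without Burkholderia the zeros fall in libraries with 346 to 2315 reads left. In X6 the PBS mean was under the library's limit in 12 of its 15 zeros, in X1 in 11 of 13, and in X4 in 7 of 11, so those zeros cannot be told from the PBS level; the remaining 3, 2 and 4 had PBS means above the limit. Over all reads, of the 34 lower genera, the PBS mean was above the limit in 22 of 23 zeros in X1, 15 of 15 in X4 and 7 of 29 in X6. In X5, with 76355 reads, 13 of the 15 genera were below all PBS libraries, and 2 were at 0 with PBS means above its limit. For Ruminococcus_C_58660 and Acutalibacter, at 0 in all 4 mix mice, the PBS means of 0.0607% and 0.044% were under the mean mix limit of 0.327%, so no fold is given.

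**Figure D4:**
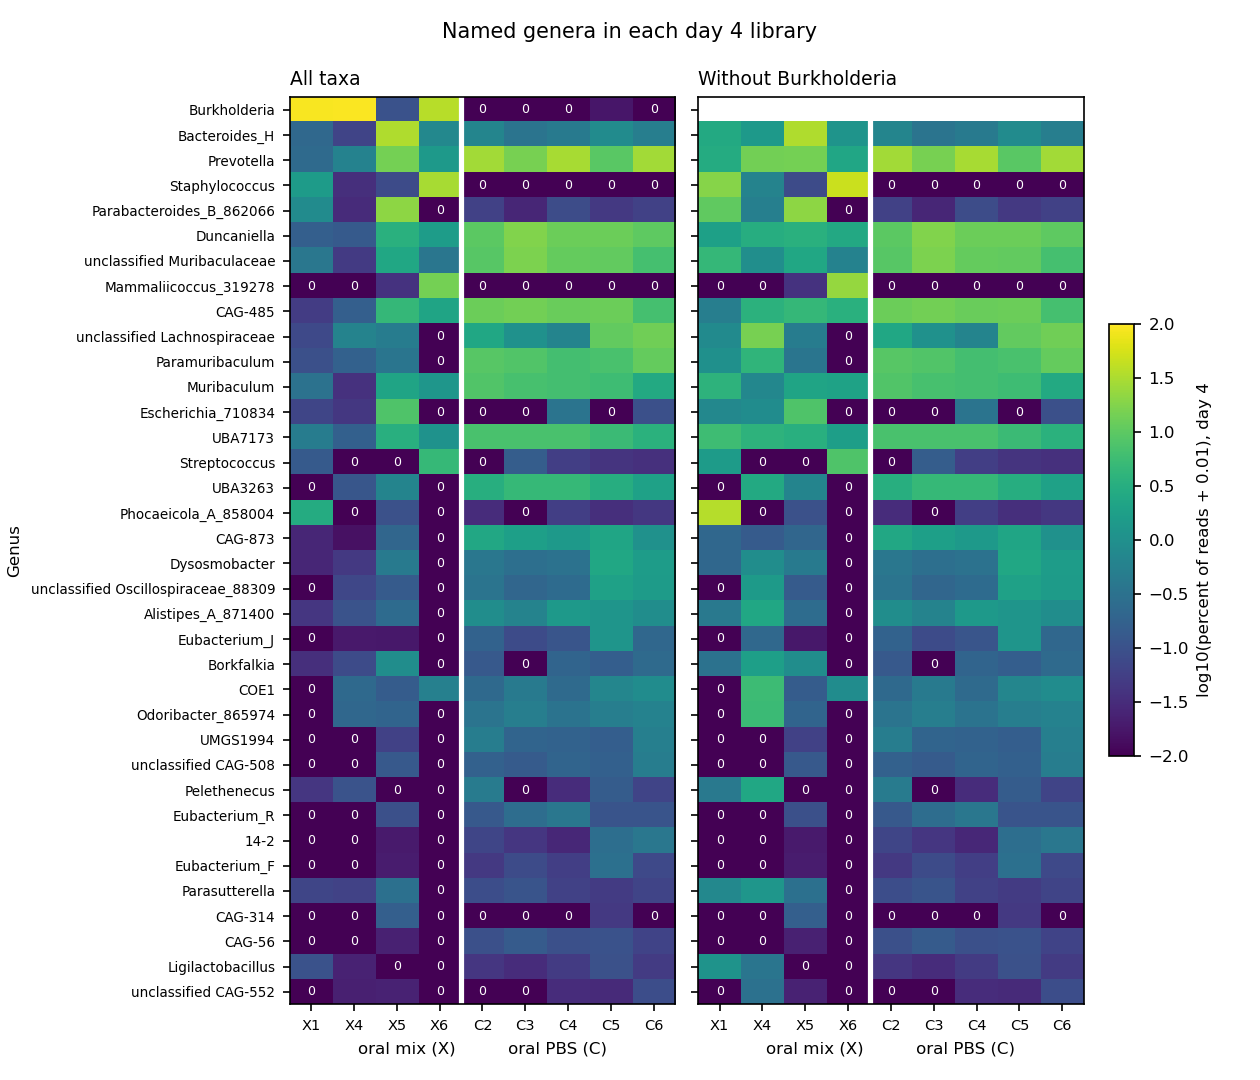
Percent of reads of the named genera as log10(percent + 0.01) in each day 4 library, over all taxa and without Burkholderia. Mix mice (X) are left of PBS mice (C), and cells marked 0 were listed at 0. Staphylococcus has no read in any PBS column and reads in all 4 mix columns, and Eubacterium_F, CAG-56 and Eubacterium_R have reads in X5 alone among the mix mice.

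Gram-positive and facultative groups that are rare in PBS mice were counted as well. Of 4 tested lactic acid bacteria, 0 passed in either direction both ways. Of all tested genera 36.8% passed over all taxa and 17% without Burkholderia. Ligilactobacillus, a gut lactobacillus, was 0.0917% in X1, 0.0139% in X4 and 0 in X5 and X6, against 0.022% to 0.0884% in PBS mice (log2 difference -1.19, limma adjusted p = 0.377). Streptococcus was 0.125%, 0, 0 and 4.86%, against 0 to 0.143% (log2 difference 1.13, limma adjusted p = 0.462). Escherichia_710834, the tested member of Enterobacteriaceae, was 0.0583%, 0.0348%, 7.92% and 0, against 0 to 0.333% (log2 difference 1.97, limma adjusted p = 0.36). Without Burkholderia its log2 difference was 3.89 (limma adjusted p = 0.102).

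Of the 3 tested genera of Desulfovibrionaceae, sulfate reducers, and the 1 of Verrucomicrobiota, 0 passed in either direction both ways. The same held for 3 tested genera of bacteria without a cell wall, which lack the target of ampicillin and vancomycin, and 2 gut actinomycetes. As families, 1 member of each of these last lists was lower and at 0 in all 4 mix mice. These were UBA660 (limma adjusted p = 0.00566, and 0.00771 without Burkholderia) and Eggerthellaceae (limma adjusted p = 0.00105, and 0.00203 without Burkholderia). Akkermansiaceae, the mucin-degrading family of Verrucomicrobiota, was 0.0167%, 0.00348%, 0.602% and 0.36% in the mix mice, against 0 to 0.0992% in PBS mice. Without Burkholderia it was 0.0864% to 0.602% in mix mice, and 3 of the 4 were above all PBS mice (log2 difference 3.48, limma adjusted p = 0.182). Of the 2 tested genera of the reagent, skin and food list, Burkholderia passed and Streptococcus did not. That list summed to 65.7% ± 44.9 of reads in mix mice and 0.0502% ± 0.0547 in PBS mice (SD, n = 4 and 5), and to 19.7% ± 26.7 in mix mice without Burkholderia.

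The mix was then set against oral vancomycin alone, which shares no library with PBS. Over all taxa 13 of 95 genera passed (13.7%), 6 higher (6.32%) and 7 lower (7.37%) in mix mice. Genera that stood high in vancomycin mice had lower shares after the mix. Escherichia_710834 was 0 to 7.92% in mix mice, against 34.0% to 68.6% in vancomycin mice (log2 difference -8.56, limma adjusted p = 5.24e-05). Borkfalkia was 0 to 0.903% in mix mice, against 5.13% to 45.6% in vancomycin mice (log2 difference -8.39, limma adjusted p = 8.03e-05). Ligilactobacillus was 0 to 0.0917% in mix mice, against 2.40% to 9.39% in vancomycin mice (log2 difference -7.84, limma adjusted p = 1.09e-08). Parasutterella, an asaccharolytic gut proteobacterium, was 0 to 0.288% in mix mice, against 0.187% to 21.9% in vancomycin mice (log2 difference -6.19, limma adjusted p = 8.03e-05). The first 3 genera were named because an earlier report gave them as highest after oral vancomycin, so the gap between the groups in them was partly set by that choice.

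Prevotella, Bacteroides_H, Muribaculum and UBA7173, 4 genera of Bacteroidota, were higher in the mix mice than in the vancomycin mice. Prevotella was 0.233% to 14.8% in mix mice, against 0 to 0.401% in vancomycin mice (log2 difference 3.78, limma adjusted p = 0.0479). Bacteroides_H was 0.0557% to 32.9% in mix mice, against 0 to 0.0778% in vancomycin mice (log2 difference 5.75, limma adjusted p = 0.00223). Without Burkholderia 20 of 94 passed (21.3%), 16 higher (17%) and 4 lower (4.26%). The 4 lower were Escherichia_710834, Borkfalkia, Ligilactobacillus and Parasutterella, and the higher ones included Duncaniella, Muribaculum, CAG-485 and UBA7173, each of them above all vancomycin mice in all 4 mix mice. Muribaculum, for example, was 0.691% to 3.79% in mix mice, against 0 to 0.259% in vancomycin mice (log2 difference 6.25, limma adjusted p = 0.000564).

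Against oral ampicillin alone 4 of 95 genera passed (4.21%), 0 higher (0%) and 4 lower (4.21%) in mix mice. Burkholderia was 0.0903% to 96.0% in mix mice, against 0 to 96.6% in ampicillin mice (log2 difference 3.28, limma adjusted p = 0.278). Borkfalkia was 0 to 0.903% in mix mice, against 0 to 85.2% in ampicillin mice (log2 difference -6.23, limma adjusted p = 0.0223). Its ampicillin values were 85.2%, 55.6%, 56.4%, 1.67% and 0, the last 2 in the mice with 89.0% and 96.6% Burkholderia. Without Burkholderia its call was lost (log2 difference -4.96, limma adjusted p = 0.108). Unclassified CAG-552 was 0 to 0.0144% in mix mice, against 0 to 36.8% in ampicillin mice (log2 difference -6.46, limma adjusted p = 0.000253). Pelethenecus, of Anaeroplasmataceae, a family known for lacking a cell wall, was 0 to 0.0974% in mix mice, against 0.0171% to 4.84% in ampicillin mice (log2 difference -5.57, limma adjusted p = 0.000253). Without Burkholderia 5 of 94 passed (5.32%), 2 higher (2.13%) and 3 lower (3.19%).

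**Figure D5:**
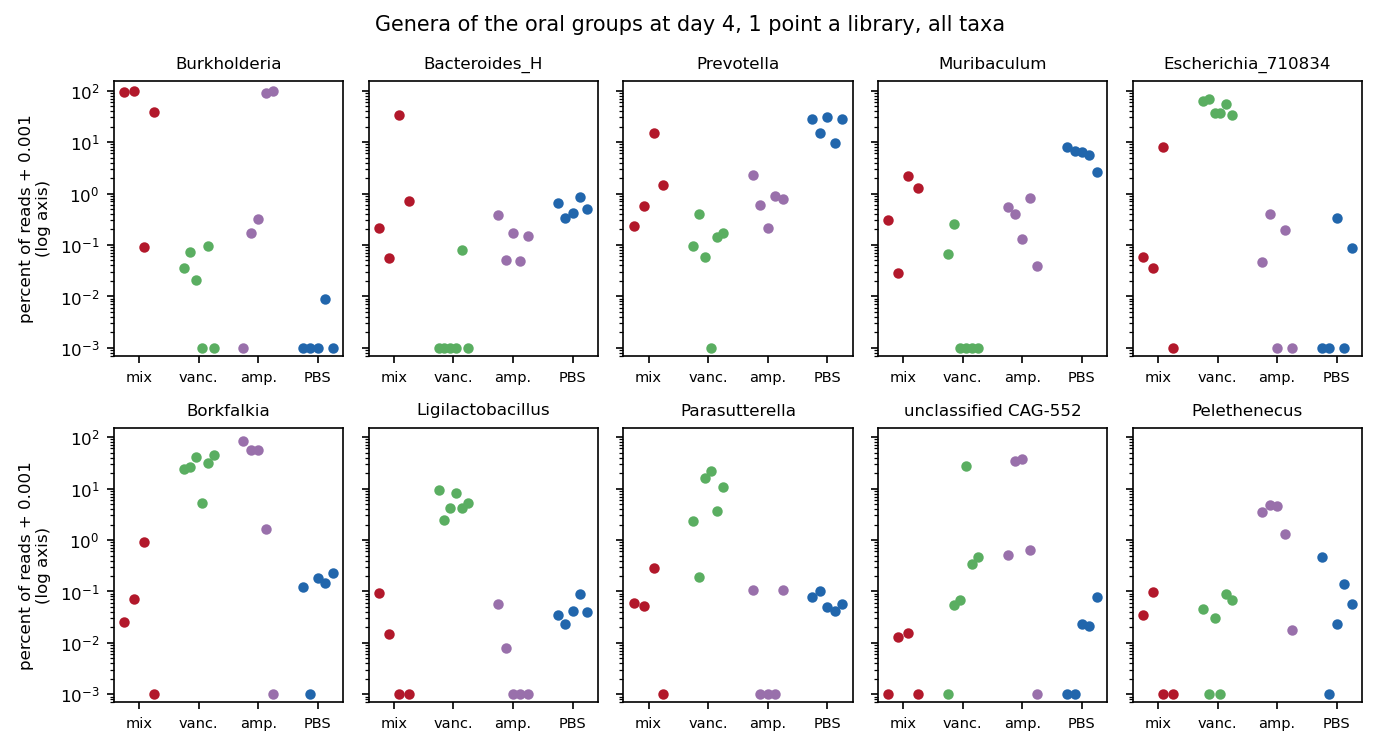
Percent of reads of selected genera in each day 4 library of the oral mix, oral vancomycin, oral ampicillin and oral PBS groups. Values are drawn as percent + 0.001 on a log axis, with Burkholderia counted in the total, and points are libraries. Escherichia_710834 and Ligilactobacillus stand high in vancomycin mice (34.0% to 68.6% and 2.40% to 9.39%) and low in mix mice, while Burkholderia spans most of the scale in mix and in ampicillin mice.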

How the data were processed

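The analysis started from the authors' composition table of 488 taxa at 7 ranks. Per the deposited values it is a signal scaled to 1e+05 per library, with empty cells (11.6%) read as 0. Per the labels' protocols the V4 region of the 16S rRNA gene was amplified with 30 to 35 PCR cycles and sequenced on a MiSeq, while the sources used here do not name the read filter, the clustering tool or the database of taxa. The 4 records are the read files of 2 runs, so the drug, route and day of each library came from the deposited sample sheets. Reads were recovered from each library's smallest step: 100% of values were whole within 0.02 reads or 1e-05 of the value. The smallest value was 2 reads in 183 of 198 libraries, so depth is a lower limit if counts share a factor. The table holds no counts, so no count model was used.

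Shares were summed by genus (316) and family (107). limma 3.58.1 in R 4.3.3 was fitted on log2(percent + 0.01) to every day 4 sample at once, each group having its own mean, with a variance trend, for genera in at least 20% of samples, with Benjamini-Hochberg adjustment and a threshold of 0.05. The added 0.01% shrinks the differences of genera near that share. A 0 in a shallow library enters as 0.01% even where its limit is higher, as in X6 without Burkholderia (0.867%). That can overstate a fall. Of 91 day 4 libraries, 2 near-identical pairs in other groups were averaged, which leaves 89 samples. Shannon indices (natural log) and distances were tested by two-sided exact permutation in Python 3.11.15 with scipy 1.17.1, adjusted over 15 comparisons. On simulated data for this comparison (95 genera) limma called 9 of 10 genera lowered by 5 log2 units, 10 of 10 raised by 8, and 1 of 75 unchanged. The simulated noise was normal with the same spread in every group, without unequal depth or a floor at 0 reads, and smaller falls were not tried. It therefore does not give the error rates on these data. The labels call the animals separate, but not their cages, so p-values measure the spread between mice as sampled. The exact tests used the mice compared. limma took the spread of each genus or family from all day 4 groups together. That shared spread need not be the spread of the mix mice, in which Burkholderia ran from 0.0903% to 96.0%.

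The libraries, taxon lists and tests were chosen with earlier results of these data known. Named genera were the 10 highest at day 0, those called higher, the 10 largest called falls, the 5 highest per mix library, the 5 largest called differences from vancomycin or ampicillin in each direction, 3 genera high after vancomycin, and list members of at least 1%; species, families and a few further genera were named after their values were seen. Alternatives were other pseudocounts, filters, levels, thinning, centring, runs, and leaving out each library.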

Additional observations from a re-analysis of the deposited data

Results flagged for a closer look

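The difference in Burkholderia between mix and PBS mice varied with the route. The log2 difference between mix and PBS was 8.57 larger by mouth than into a vein (limma adjusted p = 0.000653) and 9.91 larger by mouth than into the peritoneum (limma adjusted p = 0.000353). In each contrast 1 of 95 genera passed, Burkholderia, and without it 0 of 94 passed with limma (5 and 3 at an unadjusted p under 0.05). The mix groups of the other routes were small and partly shallow. The 6 libraries of the vein group held 65 to 123669 reads. Of the 3 of the peritoneum group, 1 held 30 reads and the others 33381 and 41968. A 0 in a library of 30 or 65 reads bounds a share loosely.

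Single libraries far from the rest of their group were looked for in the named genera, and 26 of 142 tests found one, in 11 genera, most of them found both with and without Burkholderia. Chance gives about 1 in 20 for continuous values, a rate that does not hold here, since in 17 of the 26 all other libraries of the group were at 0. Most were X5 in the mix group. It was the low one for Burkholderia (0.0903%). It was the high one, with 0 in the other 3, for UMGS1994 (0.0497%, 0.0498% without Burkholderia), unclassified CAG-508 (0.123%), Eubacterium_R (0.0864%), 14-2 (0.00916%, 0.00917% without Burkholderia), Eubacterium_F (0.0105%), CAG-314 (0.153%) and CAG-56 (0.0131%). Without Burkholderia, X1 was low for CAG-485 (0.512%) and X6 for CAG-873 (0, in 346 reads).

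Among PBS mice, C5 was the one with Burkholderia (0.00775%) and with CAG-314 (0.0357%). C6 was low for CAG-485 (6.55%) and high for unclassified CAG-508 (0.494%), and C3 had no read of Borkfalkia (0).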

How the results depend on the processing

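The Shannon difference no longer passed at family level (-0.277), without reagent, skin, food and unassigned taxa (-0.422), within run ok122 (-1.88) or with each mouse as its own baseline (-2.48). It ranged from -2.15 to -1.38 over fits without 1 library. Without Burkholderia it ranged from -0.744 to -0.113, and at family level it turned to 0.453 (exact permutation adjusted p = 0.487; the cause was not tested). R2 ranged from 0.495 to 0.782 (0.313 to 0.448 without Burkholderia), and within ok122 no longer passed (0.761 and 0.642), where 2 mice against 5 limit the test. The distance to day 0 ranged from 0.639 to 0.702 (0.442 to 0.574 without Burkholderia), lost its call without any 1 mix mouse, and with at least 500 reads was 0.678 (0.512).

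The 35 genera became 8 thinned to 500 reads, 60 with no filter, 5 centred and 17 without reagent, skin, food and unassigned taxa, and 20 to 42 without 1 library (20 without X1, 22 without X4, 23 without X6). The 16 genera without Burkholderia became 3 thinned (all higher, X6 left out), 33 with no filter, 2 with the compared samples alone in the fit and 5 centred, and 8 to 20 without 1 library (8 without X1 or X6, 10 without C5). The 13 families became 25 with no filter and 8 to 16 without 1 library (8 without X6); the 7 without Burkholderia became 11 within ok122, 20 with no filter and 5 to 9 without 1 library. The 13 genera against vancomycin became 7 with a pseudocount of 0.1% and 8 to 15 without 1 library (8 without X5, X6, V3, V4 or V6). The 4 against ampicillin became 2 with a pseudocount of 0.001% and 2 to 6 without 1 library (2 without X1, X6, A1, A2 or A3).

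Replicate numbers do not follow the mice. The r of same-numbered samples ran from -0.0833 to 0.295 and was over 0.1 in 2 of 4, and 2 of 4 mix samples correlated best with their own number. With so few pairs these values do not settle whether same-numbered samples deviated together. With the replicate number as a block, 0 genera passed with limma (27 at an unadjusted p under 0.05, and 17 without Burkholderia, where 0 passed too). Of the named genera that passed, none changed sign under the alternatives run. Of those that did not, 5 changed sign when Burkholderia was taken out: Borkfalkia (-0.47 with it and 1.44 without), Ligilactobacillus (-1.19 and 0.65), Pelethenecus (-1.39 and 0.56), Parasutterella (-0.28 and 1.67) and unclassified CAG-552 (-0.68 and 0.28).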
